A study of Mus musculus with 20 samples.

Results

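The 10 chemokine genes described here were Cxcl1, Cxcl9, Cxcl10, Cxcl12, Cxcl13, Cxcl14, Ccl2, Ccl7, Ccl8 and Cx3cl1, followed in the left ventricle of 20 mice. Each gene was read from the transcript cluster, the array's summary of a gene's probes, that the platform annotation gives to that symbol alone, and each of the 10 had exactly 1 such cluster. They are 10 of 19937 genes with a cluster of their own among 34760 clusters. The genes were chosen by their place in a family, with the earlier values of Cxcl13 in DOXO versus sham and of Cxcl9 in the interaction already known, so DOXO versus sham and the interaction are given for them as descriptions without a test. The interaction contains every comparison between the 4 groups, so all differences of Cxcl9 are descriptions. For Cxcl13, FA-DOXO versus DOXO and FA-sham versus sham share mice with its known values and are descriptions too.

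All animals were male C57BL/6 mice labelled as 2 months old, kept on a soft-dough diet with or without folic acid (FA, 10 mg per day) that began 7 days before the injection and ran to the end of the experiment at 10 days. Doxorubicin (DOXO), an anthracycline used against tumours that also injures the heart, was given as 1 intraperitoneal dose of 20 mg/kg, and sham animals received saline. The 4 groups were sham (saline and placebo diet, 4 mice), FA-sham (saline and FA, 4 mice), DOXO (6 mice) and FA-DOXO (6 mice), with 1 array for each mouse. The mice carried no tumour, and tissue could come only from animals alive at the end. Values are log2 signals as deposited, so a difference of 1 is a doubling, and no detection call accompanied them.

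Chemokines are small secreted proteins that draw leukocytes along a gradient towards the cells that release them. The CXC ligands Cxcl9 and Cxcl10 are induced by interferon-gamma and act on Cxcr3 of activated T and NK cells, while Cxcl1 attracts neutrophils through Cxcr2. Cxcl12 binds Cxcr4, is made by stromal and endothelial cells without an inflammatory stimulus and retains stem cells in the bone marrow, and Cxcl13 guides B cells into lymphoid follicles through Cxcr5. Ccl2, Ccl7 and Ccl8 are the monocyte chemoattractant proteins, and Cx3cl1 (fractalkine) is tethered to the membrane of endothelial cells and neurons and is read by Cx3cr1 on monocytes and macrophages.

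The region around the start of Cxcl9, Cxcl10 and Cxcl13 is shown. Cxcl9 and Cxcl13 had the largest differences between DOXO and sham of the 10 genes. Cxcl10 lies close to Cxcl9 on chromosome 5 and answers the same cytokine, but the interval of its own difference included 0. A link between these sequences and the signals was not tested. The sequences are from RefSeq (GRCm38.p6), run 5′ to 3′ on the strand of the gene, and cover 250 bases before to 50 bases after the start: chr5:92328030-92328329 (minus strand) for Cxcl9, chr5:92348840-92349139 (minus strand) for Cxcl10 and chr5:95956689-95956988 (plus strand) for Cxcl13. Capitals mark matches, searched on both strands, to a kappaB motif (GGG, any 3 bases, TTCC), an interferon-stimulated response element (TTTC, any 2 bases, TTTC) or the interferon-gamma-activated GAS element (TTC, any 3 bases, GAA).
Cxcl9: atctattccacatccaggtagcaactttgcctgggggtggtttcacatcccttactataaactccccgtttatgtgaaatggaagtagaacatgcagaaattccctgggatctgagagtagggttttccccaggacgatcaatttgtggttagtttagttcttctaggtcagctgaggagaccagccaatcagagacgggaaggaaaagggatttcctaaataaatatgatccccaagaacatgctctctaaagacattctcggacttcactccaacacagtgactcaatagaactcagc
Cxcl10: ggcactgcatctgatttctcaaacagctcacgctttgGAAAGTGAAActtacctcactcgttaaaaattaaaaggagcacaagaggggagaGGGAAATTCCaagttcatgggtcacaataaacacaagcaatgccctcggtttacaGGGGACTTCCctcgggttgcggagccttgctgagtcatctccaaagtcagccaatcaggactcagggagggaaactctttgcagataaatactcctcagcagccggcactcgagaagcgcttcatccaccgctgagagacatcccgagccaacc
Cxcl13: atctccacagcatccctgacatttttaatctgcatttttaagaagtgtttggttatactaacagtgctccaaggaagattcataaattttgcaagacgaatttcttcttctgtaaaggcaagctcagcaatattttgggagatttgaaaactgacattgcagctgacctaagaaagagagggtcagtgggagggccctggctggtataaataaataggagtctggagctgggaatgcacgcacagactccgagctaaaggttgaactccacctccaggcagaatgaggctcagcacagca

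The Cxcl10 window held 2 kappaB matches, which begin 159 and 104 bases before the start, and 1 response element match at 213 bases. None of these letters occurred in the windows of Cxcl9 and Cxcl13. Of the 8 chemokines with a window in the table, kappaB matched in Cxcl1 and Cxcl10, the response element in Cxcl10 and Cxcl14, and GAS in Cxcl14. The 3 kappaB matches of Cxcl1 included a pair that overlap. Over 32851 promoters of the same length, 5.56% held the kappaB motif, 3.44% the response element and 8.3% GAS. Ccl2 and Ccl7 had no entry.

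The arrays differed in how widely their signals spread. The SD over all clusters of an array ran from 0.86 to 1.50, and 8 arrays were above 1.1 (sham 1, 2 and 3, FA-sham 4, DOXO 1 and 5, FA-DOXO 5 and 6), here called wide, against 12 narrow ones. Of the 8 cardiomyocyte markers, all 8 were above the array median on every array, but their mean ran from 11.63 to 13.13 on the wide arrays of sham and from 8.20 to 9.39 on the narrow arrays of FA-sham. Since 3 of 4 sham arrays but 1 of 4 FA-sham arrays were wide, the spread moved with the groups, and the main differences are given within the wide and within the narrow arrays too. On the narrow arrays the SD of each chemokine over 12 mice lay between 0.08 and 0.14, beside a median of 0.13 over all clusters. On the 8 wide arrays it reached 0.82 for Cxcl9 and 1.11 for Cxcl13, beside a median of 0.31. The low spread on the narrow arrays was thus not particular to the chemokines. In a piece of ventricle, fewer cells of a type and less RNA per cell cannot be told apart.

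**Figure D1:**
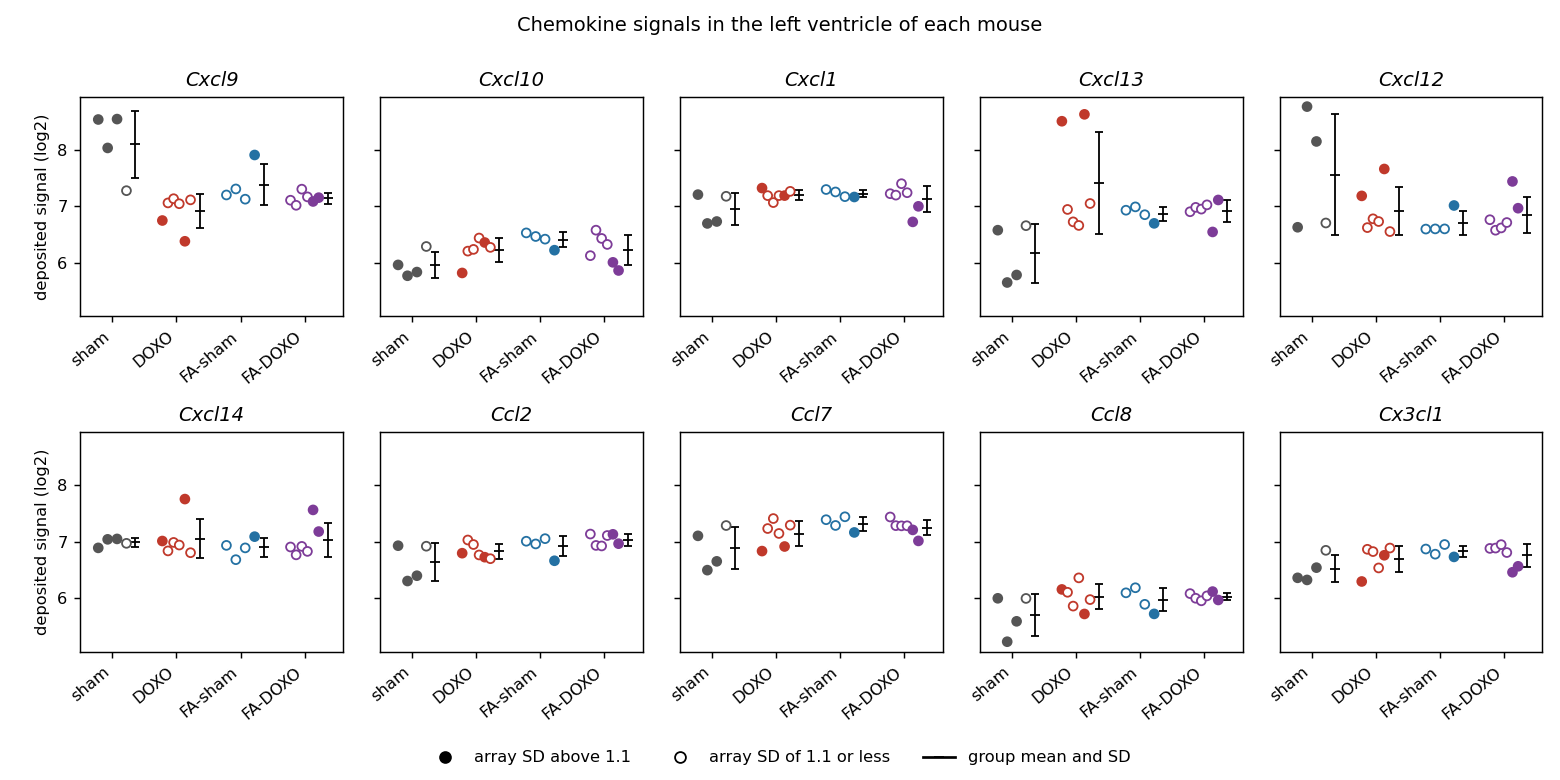
Deposited log2 signal (y axis) of each chemokine in each mouse, by group (x axis), where filled points are arrays with an SD above 1.1, open points are the others, and the bar is the group mean with its SD. Cxcl9 was above 8 in 3 sham mice, and Cxcl13 was above 8 in 2 DOXO mice, all of them on wide arrays.

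Cxcl9, the interferon-gamma-induced ligand of Cxcr3, was highest in sham hearts. Its signal was 8.53, 8.03, 8.54 and 7.27 in sham mice 1 to 4. In FA-sham it was 7.20, 7.30, 7.12 and 7.90. It lay between 6.38 and 7.13 in DOXO with a median of 7.05, and between 7.02 and 7.30 in FA-DOXO with a median of 7.13. The highest DOXO mouse (7.13) was thus below the lowest sham mouse (7.27), while FA-DOXO overlapped FA-sham. How many of all clusters separated DOXO from sham was not counted. The mean of DOXO was lower than that of sham by a log2 difference of -1.18 (SE 0.22), and the interaction was 0.94 (SE 0.31), both of them descriptions.

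From the highest to the lowest, the group means of Cxcl9 were sham (8.09 ± 0.60, SD, n = 4), FA-sham (7.38 ± 0.36, SD, n = 4), FA-DOXO (7.14 ± 0.10, SD, n = 6) and DOXO (6.91 ± 0.30, SD, n = 6). The mice of neighbouring groups in this order overlapped. FA-sham minus sham was -0.71 (SE 0.24), with -0.46 on the wide and -0.07 on the narrow arrays. FA-DOXO minus FA-sham was -0.25 (SE 0.22), with -0.79 on the wide arrays, where FA-sham had 1 mouse, and -0.06 on the narrow ones. FA-DOXO minus DOXO was 0.22 (SE 0.20), with 0.55 on the wide and 0.06 on the narrow arrays. On the wide arrays alone, with 3 sham and 2 DOXO mice, DOXO minus sham was -1.80 for Cxcl9, and on the narrow arrays, with 1 sham and 4 DOXO mice, it was -0.19. The 12 narrow arrays, in all groups, lay between 7.02 and 7.30, and the narrow sham array, sham 4, was among them. Without sham 4, DOXO minus sham was -1.45 and FA-sham minus sham was -0.98. After quantile normalization of the arrays the same differences were -0.73 and -0.26.

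The genes whose pattern was most like that of Cxcl9, ranked by the lower of the correlations within the wide and within the narrow arrays over 21639 clusters, were H2-Ab1, A730017L22Rik and H2-Eb1. H2-Ab1 and H2-Eb1 encode beta chains of MHC class II, the molecules that present antigen to helper T cells. For H2-Ab1, r was 0.93 over 8 wide arrays and 0.83 over 12 narrow ones, and for H2-Eb1 it was 0.92 and 0.73. H2-Ab1 had a signal of 8.22 to 8.52 on the wide sham arrays, 7.53 on the wide FA-sham array and 5.70 to 6.19 on the wide DOXO arrays, the order seen for Cxcl9. These points share their arrays, so the correlations are descriptions. Of 11 measured genes of 16 in a list of the interferon-gamma response, none passed an unadjusted p of 0.01 in DOXO versus sham (median difference -0.06) or in FA-sham versus sham (0.01). Cxcr3, the receptor, had a signal of 6.13 ± 0.44 (SD, n = 4) in sham. In FA-sham it averaged 6.66 ± 0.19 (SD, n = 4). With doxorubicin it was 6.31 ± 0.34 (SD, n = 6) without FA. The mean over 17 measured chemokine receptors was 5.91 on the wide and 6.47 on the narrow arrays of sham. In FA-sham that mean was 6.40 on the wide and 6.57 on the narrow arrays.

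Cxcl10, which shares the receptor of Cxcl9, was lowest in sham. Its signal was 5.96, 5.77, 5.84 and 6.29 in sham mice 1 to 4 and 6.53, 6.46, 6.42 and 6.22 in FA-sham. DOXO ran from 5.82 to 6.44 with a median of 6.25, and FA-DOXO from 5.86 to 6.58 with a median of 6.23. All groups overlapped, and Cxcl10 and Ccl8 were the members whose mean was below the median of all clusters. DOXO minus sham was 0.26 (SE 0.15, interval -0.06 to 0.57), beside a median of 0.10 over all clusters. The sham and DOXO means were 5.86 and 6.09 on the wide arrays, and both were 6.29 on the narrow ones. FA-sham versus sham was 0.44 (95% interval 0.10 to 0.79, unadjusted p = 0.0144, limma adjusted p = 0.156), and it came to 0.37 on the wide and 0.18 on the narrow arrays. With each array centred on its median it was 0.21, and after quantile normalization 0.12. The Cxcl10 signal was lower where the array spread was larger, with a slope of -0.69 (SE 0.19) log2 units per unit of array SD.

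**Figure D2:**
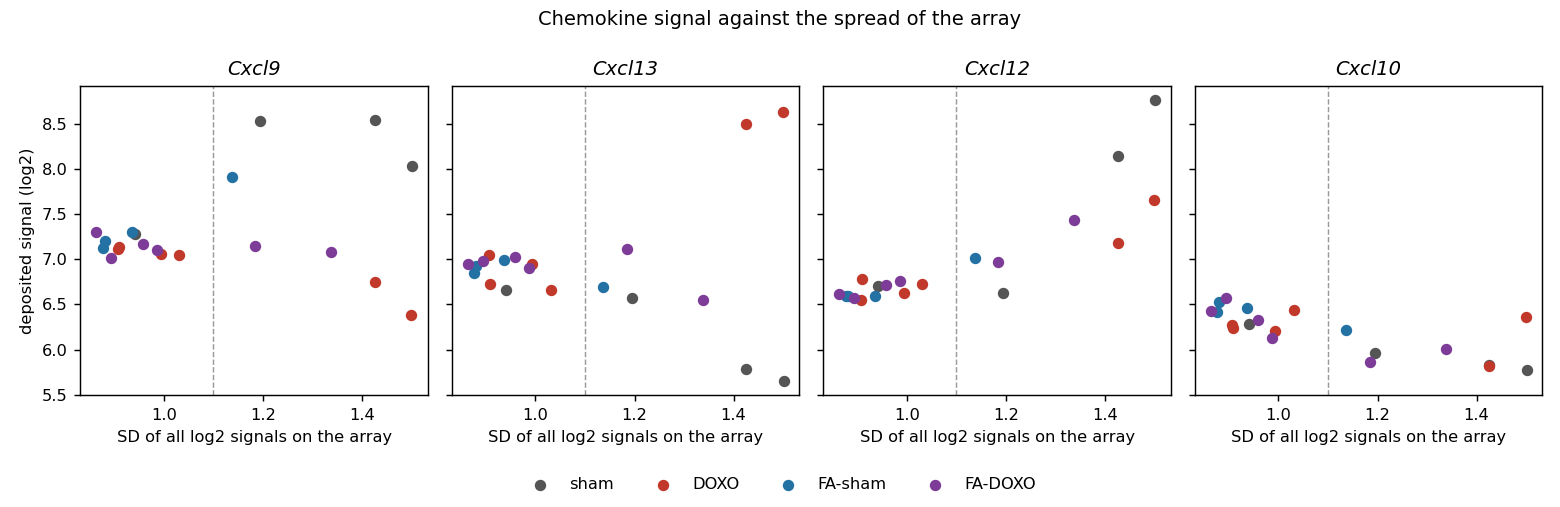
Deposited log2 signal (y axis) of 4 chemokines against the SD of all log2 signals of the array (x axis, dashed line at 1.1), 1 point for each mouse, coloured by group. To the left of the line the groups lay together for each gene, and to the right Cxcl9 and Cxcl13 separated sham from DOXO in opposite directions while Cxcl12 was above its narrow-array range on 7 of 8 arrays.

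Cxcl13, the B cell attractant, was highest in DOXO hearts. Sham mice 1 to 4 had a signal of 6.58, 5.65, 5.78 and 6.66, and FA-sham mice 6.93, 6.99, 6.85 and 6.70. DOXO mice ran from 6.66 to 8.62 with a median of 6.99, and FA-DOXO mice from 6.54 to 7.11 with a median of 6.96. The high values came from DOXO 1 (8.50) and DOXO 5 (8.62), where Cxcl13 stood above 89.9% and 89.0% of the clusters of its array. The other DOXO mice were between 6.66 and 7.05, and the lowest of them was level with sham 4 to 2 decimals. DOXO minus sham was 1.25 (SE 0.34), a description, and the interaction was -1.20 (SE 0.49).

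Within the wide arrays, DOXO minus sham for Cxcl13 was 2.56 (2 against 3 mice), and within the narrow arrays it was 0.19 (4 against 1). After quantile normalization it was 0.79 over all mice. Without DOXO 1 the difference was 1.03 and without DOXO 5 it was 1.01. FA-DOXO minus DOXO was -0.50 (interval -1.14 to 0.15), a description that shares the known DOXO mice. Among wide arrays it was -1.73, while the narrow ones gave 0.12. That wide comparison rests on DOXO 1 and 5 against FA-DOXO 5 (6.54) and 6 (7.11). FA-DOXO versus FA-sham was 0.05 (interval -0.67 to 0.78). FA-sham minus sham was 0.70 (SE 0.38), a description that shares the known sham mice. The lowest FA-sham mouse (6.70) was just above the highest sham mouse (6.66). How many of all clusters separated these mice was not counted.

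The genes most like Cxcl13 were S100a9, a calcium-binding protein of neutrophils (r = 0.88 over 8 wide and 0.80 over 12 narrow arrays), Adamts3, a protease that trims procollagen (0.75 and 0.86), and Clca3a1 (0.91 and 0.72). S100a9 is also 1 of the 8 neutrophil markers listed. Of these, 5 were higher in DOXO versus sham at an unadjusted p under 0.01, where 1.05% of all clusters passed in either direction, and none at an adjusted p under 0.05. In FA-sham versus sham 2 of the 8 were higher at that unadjusted threshold (4.35% of clusters). The mean signal of the 8 ran from 5.52 to 5.95 on the wide sham arrays, from 6.80 to 6.95 on the wide DOXO arrays and from 6.31 to 6.46 on the wide FA-DOXO arrays. On the narrow arrays it was 6.33 in the sham mouse, 6.33 to 6.49 in DOXO and 6.42 to 6.71 in FA-DOXO. The part of neutrophils in the Cxcl13 values was not tested. The mean of 5 measured B cell markers was 5.66 to 6.01 on the wide DOXO arrays and 5.89 to 6.37 on the wide sham arrays, and no B cell marker passed the unadjusted threshold in DOXO versus sham. For Cxcr5, the receptor of Cxcl13, sham averaged 5.48 ± 0.24 (SD, n = 4), and the DOXO mean was 5.66 ± 0.28 (SD, n = 6).

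Cxcl12, the ligand of Cxcr4, was higher on the wide arrays, whatever the group, with 1 exception in sham 1. The signal was 6.63, 8.76, 8.14 and 6.70 in sham mice 1 to 4 and 6.60, 6.60, 6.60 and 7.01 in FA-sham. It ran from 6.55 to 7.66 in DOXO with a median of 6.75, and from 6.57 to 7.44 in FA-DOXO with a median of 6.74. Only sham 2 and 3 exceeded 8, and all groups overlapped. Its slope on the array SD was 2.12 (SE 0.34) log2 units per unit of SD, and its mean was 7.47 ± 0.70 (SD, n = 8) on the wide and 6.65 ± 0.08 (SD, n = 12) on the narrow arrays. FA-sham versus sham was -0.86 (interval -1.64 to -0.08, limma adjusted p = 0.156) and became -0.20 with the array SD in the model. DOXO minus sham was -0.64 (SE 0.34) and became -0.35. Without sham 2 it was -0.24. Noa1 (r = 0.88 on wide and 0.82 on narrow arrays), Csrp2 (0.81 and 0.78), a LIM protein of smooth muscle, and Fam3a (0.76 and 0.78) were most like Cxcl12. The Cxcr4 signal averaged 6.69 ± 0.13 (SD, n = 4) in sham hearts. It was 6.44 ± 0.21 (SD, n = 6) with DOXO, and 6.55 ± 0.14 (SD, n = 6) when FA was added.

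Cxcl14, a chemokine that epithelia and stroma release without a stimulus, differed little between groups apart from single mice. Sham mice lay between 6.89 and 7.05, FA-sham between 6.68 and 7.09, DOXO between 6.80 and 7.75 and FA-DOXO between 6.77 and 7.56. DOXO 5 and FA-DOXO 5, both on wide arrays, were the 2 highest. FA-DOXO versus FA-sham was 0.13 (interval -0.24 to 0.49), with 0.28 on wide and 0.02 on narrow arrays. FA-sham versus sham was -0.09 (interval -0.49 to 0.31), with 0.10 on wide and -0.14 on narrow arrays.

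Cxcl1, the neutrophil attractant, was between 6.70 and 7.20 in sham, with sham 2 and 3 the lowest, between 7.16 and 7.29 in FA-sham, between 7.06 and 7.32 in DOXO and between 6.72 and 7.40 in FA-DOXO. DOXO minus sham was 0.25 (SE 0.13), with 0.38 on the wide arrays and a difference on the narrow arrays that rounds to 0. FA-sham versus sham was 0.27 (interval -0.03 to 0.57), with 0.29 on wide and 0.06 on narrow arrays. The groups overlapped in each comparison, and limma gave an adjusted p of 0.983 in FA-DOXO versus FA-sham, 1.00 in FA-DOXO versus DOXO and 0.179 in FA-sham versus sham.

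Ccl2, Ccl7 and Ccl8, the monocyte attractants that lie in a cluster on chromosome 11, were each lowest in sham. Ccl2 was 6.93, 6.30, 6.40 and 6.92 in sham mice 1 to 4, Ccl7 was 7.10, 6.50, 6.65 and 7.28, and Ccl8 was 6.00, 5.23, 5.59 and 6.00. In all 3 genes sham 2 and 3, on the arrays with the widest spread of their group, were the low ones. The means in FA-sham, DOXO and FA-DOXO were 6.92, 6.83 and 7.03 for Ccl2, 7.32, 7.14 and 7.25 for Ccl7, and 5.97, 6.03 and 6.03 for Ccl8. FA-sham versus sham was 0.43 for Ccl7 (interval 0.09 to 0.78, unadjusted p = 0.0160, limma adjusted p = 0.156), 0.28 for Ccl2 and 0.27 for Ccl8. On the wide arrays these were 0.41, 0.12 and 0.12, and on the narrow arrays 0.09, 0.09 and 0.06. With each array centred on its median they were 0.20, 0.05 and 0.03, and after quantile normalization Ccl8 turned to -0.04.

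FA-DOXO versus DOXO was 0.20 for Ccl2 (interval -0.04 to 0.45, unadjusted p = 0.0970, limma adjusted p = 1.00), and 0.11 for Ccl7. For Ccl2 it was 0.29 on wide and 0.16 on narrow arrays, and for Ccl7 0.24 and 0.05. The genes most like Ccl7 were Slc13a4, a sulphate transporter, 9430041J12Rik and Eppk1, a plakin, with r between 0.84 and 0.92 within either kind of array. The receptor Ccr2, through which Ccl2 and Ccl7 act, averaged 5.91 ± 0.42 (SD, n = 4) in sham. The DOXO mean was 5.94 ± 0.51 (SD, n = 6).

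Cx3cl1, the membrane-tethered chemokine of endothelium, was between 6.32 and 6.85 in sham, 6.73 and 6.95 in FA-sham, 6.30 and 6.89 in DOXO and 6.46 and 6.95 in FA-DOXO. Its mean was 6.50 ± 0.18 (SD, n = 8) on the wide and 6.84 ± 0.11 (SD, n = 12) on the narrow arrays. On the wide sham and the narrow FA-sham arrays Cx3cl1 averaged 6.41 and 6.86. The mean over 8 endothelial markers ran from 7.21 to 9.28 and from 6.71 to 6.77 on these arrays. The part of the array spread in these values was not tested. FA-sham versus sham was 0.31 (interval -0.01 to 0.63, limma adjusted p = 0.163), with 0.32 on the wide and 0.02 on the narrow arrays.

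**Figure D3:**
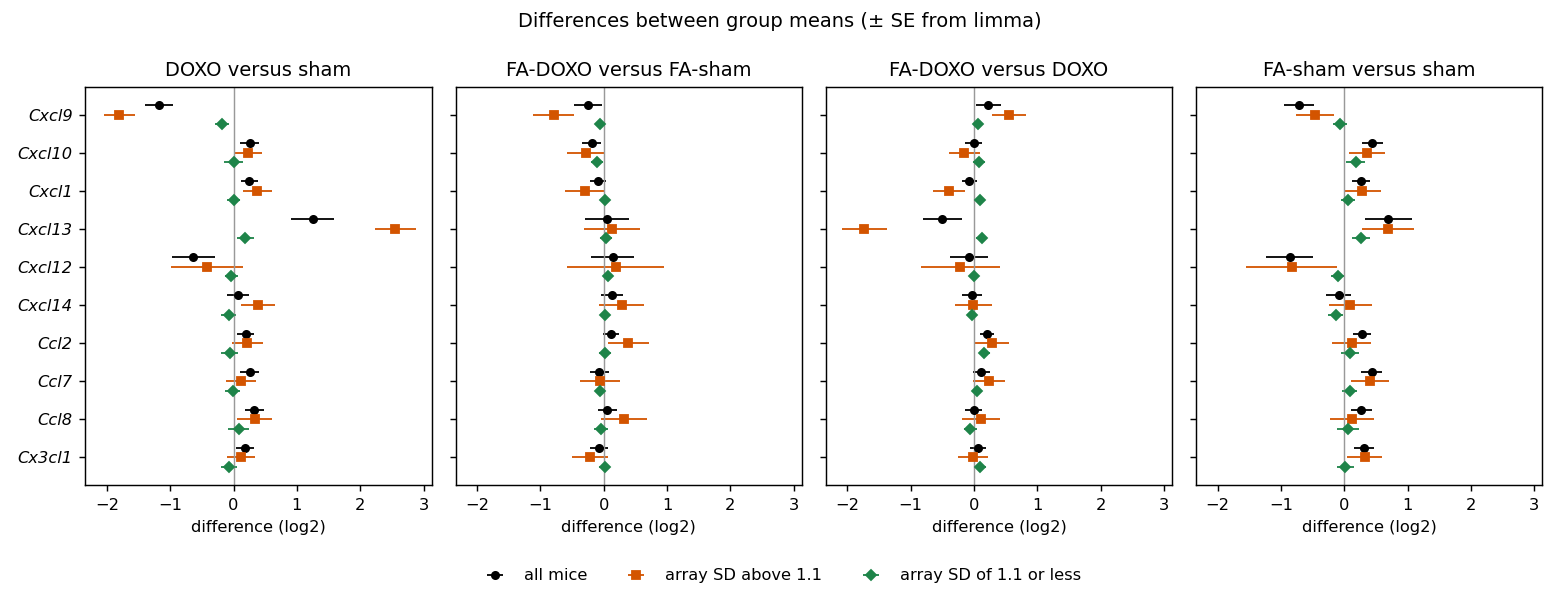
Difference between group means (x axis, log2) with its SE from limma for each chemokine (y axis) in 4 comparisons, over all mice (black), wide arrays (orange squares) and narrow arrays (green diamonds). In DOXO versus sham Cxcl9 and Cxcl13 stand away from 0 over all mice and on the wide arrays, at -1.80 and 2.56 there, and are within 0.2 of it on the narrow arrays.

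Set against all clusters, the chemokines gave few values past a threshold. In FA-DOXO versus FA-sham, 0 of 10 passed an adjusted p under 0.05 in limma, where 0.00288% of clusters did, and 0 of 10 an unadjusted p under 0.01, where 0.268% did. In FA-DOXO versus DOXO, 0 of 10 passed either, against 0% and 0.158% of clusters. At an unadjusted p under 0.05 these comparisons had 0 of 10 chemokines each, beside 433 and 455 of all clusters. In FA-sham versus sham, 0 of 10 passed the adjusted threshold (0% of clusters) and 1 of 10, Cxcl9, the unadjusted one (4.35%). At an unadjusted p under 0.05 there were 4 chemokines (Cxcl9, Cxcl10, Cxcl12 and Ccl7) and 10784 of 34760 clusters in that comparison. The median difference was 0.28 over the 10 chemokines and 0.19 over all clusters, where it became -0.04 with median centring and 0.03 with quantile normalization. Without sham 4, Cxcl9, Cxcl10, Cxcl12, Ccl2, Ccl7 and Cx3cl1 passed the adjusted threshold in FA-sham versus sham, as did 14815 of all clusters. In DOXO versus sham 0 of 10 passed the adjusted threshold (0.00288% of clusters), and Cxcl13 upwards and Cxcl9 downwards passed the unadjusted one (1.05%). In the interaction 0 of 10 passed the adjusted (0%) and 1 of 10, Cxcl9, the unadjusted threshold (0.463%). At an unadjusted p under 0.05, limma gave 1991 and 1803 clusters in these comparisons. Both were in view when the genes were chosen, and nothing is read from their counts or from those of Cxcl9. DOXO versus sham and FA-sham versus sham share their sham mice.

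No gene in the other lists of the chemokine system passed the adjusted threshold in any comparison in limma. Their counts at an unadjusted p under 0.01 stand beside 1.05% of all clusters in DOXO versus sham (185 higher and 179 lower) and 4.35% in FA-sham versus sham (1320 higher and 192 lower). Of 25 other ligands in DOXO versus sham, Ccl3, a macrophage inflammatory protein, and Cxcl2, a neutrophil attractant, were higher at an unadjusted p under 0.01, by 0.44 (SE 0.14) and 0.54 (SE 0.17). Ppbp, a chemokine of platelets, was lower by -0.58 (SE 0.18). The median difference of the 25 was 0.22, beside 0.10 over all clusters. It was -0.01 on the wide and -0.03 on the narrow arrays. At that unadjusted threshold 0 of the 25 were higher on the wide arrays, with a block for array kind or after quantile normalization. With the array SD as a covariate 4 were higher, and with median centring 1. In FA-sham versus sham Ccl3 (0.53, SE 0.16) and Cxcl2 (0.55, SE 0.19) were again higher. The median of the 25 there was 0.37, with 0.32 on the wide and 0.05 on the narrow arrays. None of the 25 passed in FA-DOXO versus FA-sham or in FA-DOXO versus DOXO.

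Of 17 measured receptors of 18, 0 passed the unadjusted threshold in DOXO versus sham, and 2 were higher in FA-sham versus sham, Ccr8 (0.79, SE 0.26), which binds Ccl8 in the mouse, and Cxcr1 (0.72, SE 0.24), a neutrophil receptor. Of 6 atypical receptors, which take up chemokines without signalling for migration, Ackr1 was higher in FA-sham versus sham (0.66, SE 0.19). Of 8 proteases that trim chemokines, Mmp8, neutrophil collagenase, was higher in DOXO versus sham (0.54, SE 0.15). Of 10 cytokines that induce chemokines, Ifng (0.68, SE 0.23) and Il1a (0.57, SE 0.17) were higher in FA-sham versus sham, and none in DOXO versus sham. Of 10 measured NF-kB response genes of 12, Tnfaip3, which shuts that pathway off, was higher in DOXO versus sham (0.46, SE 0.16). For Ifng, the signal was 6.66 on the narrow sham array beside a mean of 6.71 on the narrow FA-sham arrays, and averaged 5.77 on the wide sham arrays. The median of FA-sham minus sham was 0.52 on wide and 0.13 on narrow arrays for the receptors, and 0.39 and 0.08 for the cytokines. For the genes named here past the unadjusted threshold, the limma adjusted p was 0.156 in FA-sham versus sham and 0.647 in DOXO versus sham.

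**Figure D4:**
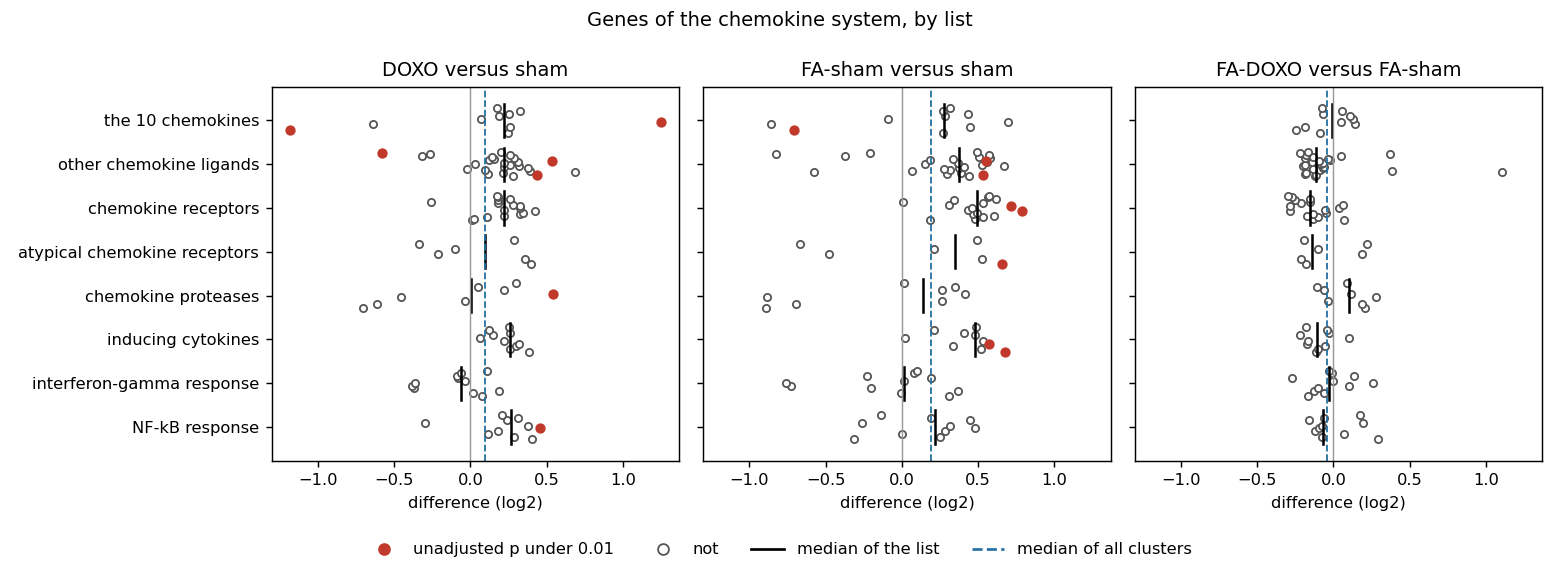
Difference in log2 (x axis) of each measured gene of the chemokine system in 3 comparisons, by list (y axis), with red points for an unadjusted p under 0.01, a black bar for the median of the list and a dashed line for the median of all clusters. The medians of the other ligands and of the receptors lie to the right of that line in FA-sham versus sham (0.37 and 0.49 beside 0.19). They lie to its left in FA-DOXO versus FA-sham (-0.12 and -0.15 beside -0.04). The median of the 10 chemokines lies to its right in both, at 0.28 and -0.01.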

How the data were processed

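Left ventricles of 20 mice were profiled on Mouse Gene 1.0 ST arrays, 1 array for each mouse, and grouped by the sample labels. The values deposited by the authors are log2 signals per transcript cluster, made with R 2.14.2 per the submitters' processing notes. How background, normalization and probe summary were handled is not given in the sources used here, and array medians still ran from 6.23 to 6.66, so differences between arrays may remain in every comparison. The number of arrays limits the precision.

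A mean for each group was fitted to all 34760 clusters with limma 3.58.1 in R 4.3.3, without filter or covariate, with two-sided moderated tests, Benjamini-Hochberg adjustment over all clusters (threshold 0.05) and the study's unadjusted threshold of 0.01. The fit was run on simulated data with known shifts added to some clusters in FA-DOXO. Residuals were shuffled over the arrays there, so it cannot show how the uneven array spread over the groups affects the fit. Replicates are separate mice. No 2 arrays were identical. Of the clusters, 21640 had 1 symbol, 1321 several and 11799 were unnamed here. Chemokines, gene lists, cell type markers and the limit of 1.1 on the array SD were chosen with earlier results of these data known. Named beside the 10 chemokines are list genes past a threshold, at most 3 by list and comparison, the 3 clusters most like each of the 4 most variable chemokines, and, outside that rule, the receptors of the chemokines, Ccl6 and Ccl9. Motifs were searched with Python 3.11.15. Alternatives were quantile normalization, median centring, a filter on low signals, 1-symbol clusters, another cluster for a gene, a trended and robust fit, array weights, the array SD as a covariate, wide and narrow arrays as a block or alone, a replicate block, the compared groups alone, and each mouse left out.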

Additional observations from a re-analysis of the deposited data

Results flagged for a closer look

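Each chemokine was examined in each group for a mouse that stood apart from the rest, in 40 groups of values, of which chance flags about 1 in 20. The gap between the highest or lowest mouse and the nearest other, divided by the range of the group, was above Dixon's 95% critical value for that number of mice in 4 groups. Cxcl12 was at 7.01 in FA-sham 4, while the other FA-sham mice were at 6.60 to 2 decimals. Cxcl14 was at 7.75 in DOXO 5 beside 6.80 to 7.01 in the rest of its group. Cxcl13 was at 6.54 in FA-DOXO 5 beside 6.90 to 7.11, and Cxcl10 was at 5.82 in DOXO 1 beside 6.21 to 6.44, only just past that value. All 4 mice were on wide arrays, and the part of the array spread in these values was not tested. No chemokine had an adjusted p under 0.05 in the interaction, where 1803 of 34760 clusters were at an unadjusted p under 0.05, and none had groups that separated in opposite directions with and without FA.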

How the results depend on the processing

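Of 1590 differences of single chemokines recomputed under the alternatives, 1524 moved by less than the residual SD of the gene, 66 by more, and 0 of the differences past the unadjusted threshold changed sign. That last count covers differences of Cxcl9 and Cxcl13 only, and signs did change among the others. With no mouse left out, Cxcl14 in DOXO versus sham kept its sign in 8 of 12 alternatives, and Ccl2 in the interaction in 7 of 12. The count at an adjusted p under 0.05 was 0 in all comparisons and became 1 (Cxcl9) in DOXO versus sham with a covariate for array SD. Counts in DOXO versus sham and in the interaction, and those that rest on Cxcl9 or Cxcl13, are descriptions, since these values were known when the genes were chosen. With array weights, whose estimate stopped before it converged, it was 10 in DOXO versus sham, 10 in FA-sham versus sham and 9 in the interaction. There 30851, 30685 and 28545 of all clusters were called too, so those counts say nothing about chemokines. With a mouse left out it ran from 0 to 1 in DOXO versus sham, from 0 to 6 in FA-sham versus sham (Cxcl9, Cxcl10, Cxcl12, Ccl2, Ccl7 and Cx3cl1 without sham 4, where 14815 clusters were called) and stayed at 0 elsewhere.

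At an unadjusted p under 0.01, DOXO versus sham had 2 chemokines, 0 on narrow arrays, 1 with the compared groups alone, 10 with array weights and 1 to 2 with a mouse left out (1 without sham 2). FA-DOXO versus DOXO had 0, and 1 on wide arrays, which was Cxcl13 and is a description. FA-sham versus sham had 1, 10 with array weights, 0 to 4 with a mouse left out (4 without sham 4), and 0 after quantile normalization, in the trended and robust fit, with a covariate for array SD, with a block for array kind, on wide or on narrow arrays, and with the compared groups alone. The interaction had 1, 8 with array weights, 0 to 1 with a mouse left out, and 0 after quantile normalization, with a block for array kind and on narrow arrays. With the replicate block the count was 2 in DOXO versus sham and 0 in the others. Replicate numbers were not taken to pair the mice. Of 26 same-numbered pairs 12 had a correlation above 0.1 (range -0.86 to 0.84). No differently numbered pairs were set beside them, so these correlations cannot decide whether the numbers mark pairs or a processing block. In each case the cause was not tested.

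Over all clusters, the counts at an unadjusted p under 0.01 in DOXO versus sham and FA-sham versus sham were 364 and 1512, and they became 1440 and 635 with a covariate for array SD and 2581 and 9776 without sham 4. Adjusted calls in DOXO versus sham went from 1 to 59 with that covariate and to 39 without sham 4. Median centring turned the split in FA-sham versus sham from 1320 higher and 192 lower to 410 and 611 (559 and 292 with quantile normalization), in DOXO versus sham from 185 and 179 to 137 and 323, and in the interaction from 72 and 89 to 166 and 82. Quantile normalization turned it from 82 and 11 to 111 and 87 in FA-DOXO versus FA-sham, and from 46 and 9 to 42 and 45 in FA-DOXO versus DOXO (40 and 31 with median centring). Cxcl10 and Ccl8 fell below the filter on low signals. Reading a gene from another cluster of its own could not be run, since each of the 10 genes had exactly 1. Most wide or narrow comparisons have 1 to 3 mice on a side, and a lone mouse was assumed to vary like the other groups.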

Other observations

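Among the other ligands, Ccl6 and Ccl9, chemokines of macrophages and myeloid cells that lie close together on chromosome 11, were named after their values were seen. Their differences are descriptions. Ccl6 was at 8.21, 7.62, 7.74 and 6.83 in sham mice 1 to 4, between 7.34 and 9.73 in DOXO, at 6.86, 6.88, 6.86 and 7.49 in FA-sham, and between 6.81 and 9.44 in FA-DOXO. DOXO minus sham was 0.69 (SE 0.49) and FA-DOXO minus FA-sham 1.104 (SE 0.49), with limma adjusted p of 0.647 and 0.983. Of the 25 other ligands, Ccl6 had the highest difference in FA-DOXO versus FA-sham, where 21 were negative. The sign for Ccl6 was the same within each kind of array. DOXO minus sham was 1.37 on wide and 0.99 on narrow arrays, the latter with 1 sham mouse. FA-DOXO minus FA-sham was 1.17 on wide arrays, with 1 FA-sham mouse, and 0.99 on narrow ones. With the array SD as a covariate the differences were 1.05 (SE 0.36) and 0.90 (SE 0.36). They were 0.79 and 1.11 after quantile normalization and 0.57 and 1.16 with median centring. With array weights, whose estimate did not converge, they were 0.19 and 1.22. Ccl9 had the same signs, at 0.39 (SE 0.20) and 0.38 (SE 0.20), and at 0.48 and 0.33 with the covariate. Array weights aside, where 30851 of 34760 clusters were called in DOXO versus sham, neither gene passed the adjusted threshold in the fits named here. The groups of Ccl6 overlapped in both comparisons.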
